A study of Mus musculus with 12 samples.

Results

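The genes described here are 9 killer cell lectin-like receptor (Klr) genes of the mouse, out of 27 genes of that family and 23279 named genes on the arrays. They are Klra17 and Klra2, which belong to the Ly49 branch and are known from myeloid cells, and Klrb1b, Klrb1c, Klrc1, Klrd1, Klre1, Klrg1 and Klrk1, which are known mainly from natural killer cells and T cells. They were picked by family name with the genotype differences of these arrays already known, so the differences between genotypes are given below as a description of the 9 genes and not as tests of them.

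RNA came from 6 TRIM33 and 6 WT samples of inflammatory blood monocytes (CD11b+, CD115+ and high in Ly6C) of C57BL/6 LyzCre mice aged 6 to 8 weeks. LyzCre is a recombinase driven by a lysozyme locus that is active in monocytes, macrophages and neutrophils. Every sample carries that strain label, the WT samples too, and the labels do not say which allele of Trim33, a chromatin-binding cofactor of SMAD signalling, the TRIM33 mice carry, while the series title speaks of a deficiency in myeloid cells. Each sample is 1 single-colour array. The titles call 2 arrays of each genotype a mix. The labels neither say what was mixed nor tie the arrays to separate animals. Errors below therefore rest on the spread between arrays, which may be partly technical. Each SE of a difference comes from limma, which draws the variance of each gene towards a value shared by all genes.

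Klr genes encode membrane receptors with a lectin-like outer domain and lie mostly in the natural killer gene complex on chromosome 6. Inhibitory receptors of the family carry a tyrosine motif in the cell that recruits phosphatases, and activating receptors signal through adaptors such as DAP12 and DAP10. Many read MHC class I or related proteins on neighbouring cells. In the monocyte lineage most are silent, and Ly49Q, the product of Klra17, and Ly49B, the product of Klra2, are the Ly49 receptors best known from myeloid cells.

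Values are log2 expression values, 1 per gene on each array, so a difference of 1 is a doubling of the array signal. The arrays parted into sets of 6, each with 3 TRIM33 and 3 WT arrays, called here after the genes that mark them. In the Y set (TRIM33 replicates 1 to 3 and WT replicates 4 to 6, the mixes among them) the Y-linked Eif2s3y read 8.09 to 8.47 and the proliferation gene Mki67 4.91 to 6.58, while in the Xist set (the other arrays) they read 2.19 to 2.89 and 9.46 to 9.92. The defining monocyte genes Ly6c2 (12.20 to 12.55) and Csf1r (9.73 to 11.09) were high on all 12 arrays. Low readings on this scale are not a true zero: Xist read 3.36 to 3.64 in the Y set, against 9.01 to 10.18 in the Xist set. The natural killer markers Ncr1 (3.02 to 3.63) and Eomes (2.95 to 3.61) and the neutrophil marker Ly6g (2.87 to 3.82) were near such readings. Trim33 read 6.06 to 6.23 on TRIM33 arrays and 6.81 to 7.05 on WT arrays, with no overlap.

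Of the 9 genes, Klra17 was the only one with a large difference between genotypes, and it was higher in TRIM33 monocytes. Klra17 encodes Ly49Q, an inhibitory receptor for MHC class I that is known from plasmacytoid dendritic cells, monocytes and neutrophils. Klra17 read 5.77, 5.80 and 6.77 on TRIM33 arrays of the Y set, against 3.61, 3.31 and 3.34 on WT arrays. Its Xist set values were 3.66, 5.06 and 4.74 on TRIM33 arrays, against 3.32, 4.01 and 3.44 on WT arrays. TRIM33 arrays were all above WT arrays in the Y set. In the Xist set TRIM33 replicates 5 and 6 were above the WT arrays, whereas TRIM33 replicate 4 lay among them. Klra17 averaged 5.30 ± 1.07 in TRIM33 arrays and 3.51 ± 0.273 in WT arrays (SD, n = 6 each), a difference of 1.79 (SE 0.399). Its WT readings lie near those of Xist in the Y set, so no linear fold is given. Within sets the difference was 2.69 (SE 0.260, Y set) and 0.90 (SE 0.323, Xist set). By size it ranked 8 among the 23279 genes, and 15 genes (0.0644%) differed by 1 or more in either direction.

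Klra2, the other myeloid receptor, did not follow Klra17. It encodes Ly49B, an inhibitory receptor of myeloid cells. Klra2 read 10.41, 10.08 and 10.46 on TRIM33 arrays of the Y set, against 10.20, 10.35 and 10.52 on WT arrays. Its Xist set values were 9.50, 8.98 and 8.95 on TRIM33 arrays, against 9.05, 9.0 and 9.04 on WT arrays. The genotypes overlapped in both sets, and the mean difference was 0.04 (SE 0.364, or 0.110 with the array set as a block). Klra2 instead separated the sets, at 10.1 to 10.5 in the Y set against 8.95 to 9.50 in the Xist set.

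**Figure D1:**
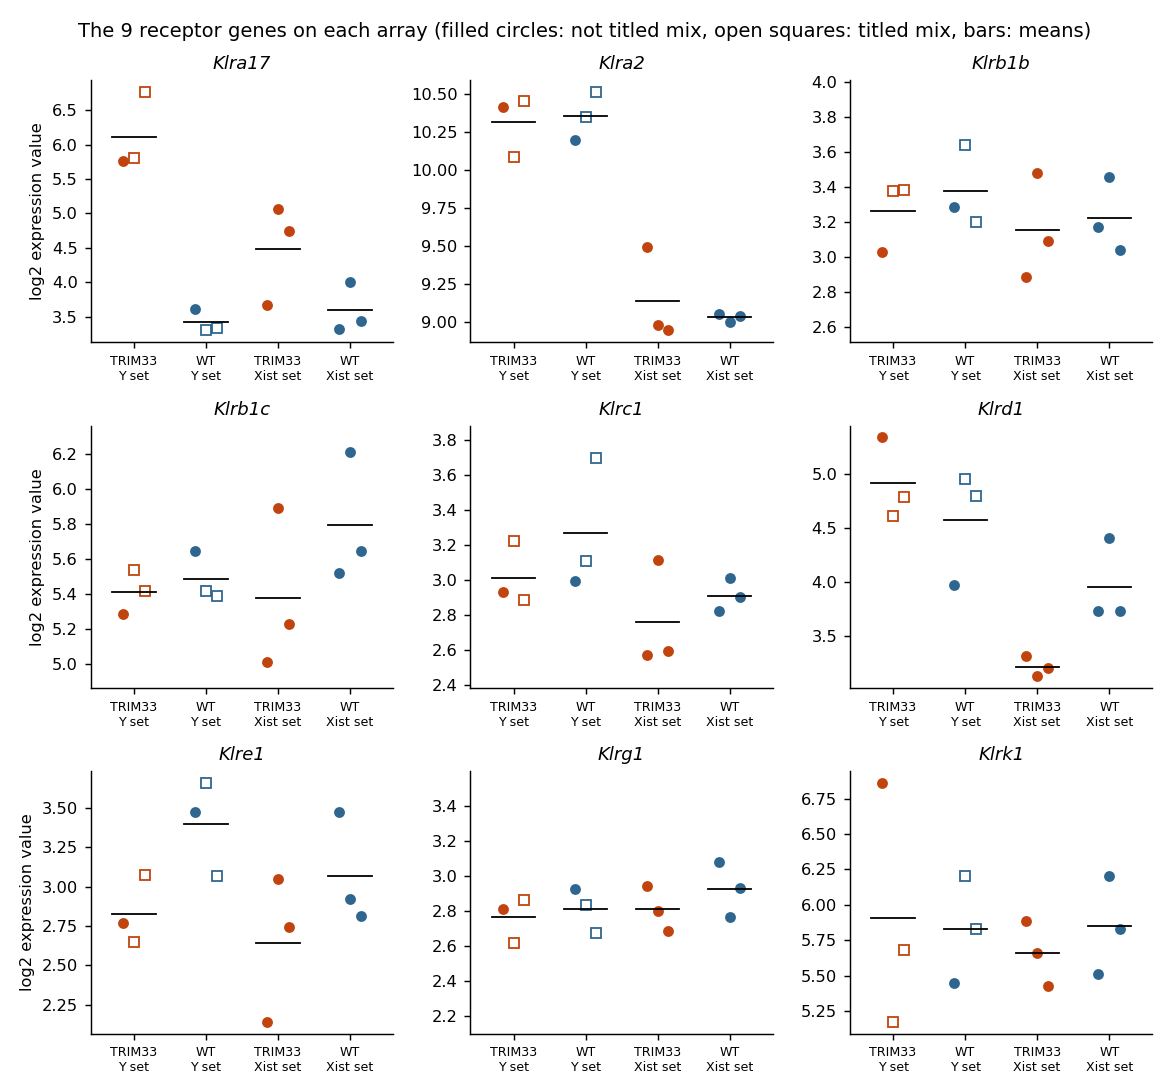
Log2 expression value of each of the 9 receptor genes (y axis, at its own scale and not starting at 0) on the 12 arrays, split by genotype and array set. Filled circles are arrays not titled as mixes, open squares are mixes, and bars are group means of 3 arrays. Klra17 is higher on TRIM33 arrays in the Y set without overlap, and Klra2 is higher in the Y set than in the Xist set in both genotypes.

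The start regions of Klra17 and Klra2 are shown because these myeloid relatives behaved differently between genotypes. Both sequences are from RefSeq on GRCm38.p6, run 5′ to 3′ on the minus strand and cover 250 bases before to 50 after the annotated start. Capitals mark matches, on either strand, to GAGGAA (the core of sites bound by PU.1, a monocyte transcription factor) and to TGANTCA (the AP-1 type).
Klra17 (chr6:129876623-129876922): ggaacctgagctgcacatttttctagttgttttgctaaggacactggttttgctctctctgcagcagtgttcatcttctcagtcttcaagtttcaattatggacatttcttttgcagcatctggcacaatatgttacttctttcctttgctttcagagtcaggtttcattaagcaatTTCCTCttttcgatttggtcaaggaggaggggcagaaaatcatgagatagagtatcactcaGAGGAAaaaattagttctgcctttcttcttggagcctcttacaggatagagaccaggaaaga
Klra2 (chr6:131247313-131247612): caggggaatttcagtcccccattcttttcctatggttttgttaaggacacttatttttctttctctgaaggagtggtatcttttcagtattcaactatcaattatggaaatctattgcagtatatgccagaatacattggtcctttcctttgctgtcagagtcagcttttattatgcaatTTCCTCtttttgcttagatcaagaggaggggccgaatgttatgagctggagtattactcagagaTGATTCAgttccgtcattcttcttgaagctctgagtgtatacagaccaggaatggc
The sequences are related: 229 of 293 aligned base pairs were identical (78.2%), against 45.8% to 59.1% for the other pairings of either with a natural killer type member. Both carry a reversed GAGGAA at a like place, at bases -73 to -68 from the start in Klra17 and -70 to -65 in Klra2. Klra17 has a second match at -12 to -7 that Klra2 lacks, and Klra2 has a TGANTCA match at -6 to 1 that Klra17 lacks. Such matches are common: GAGGAA occurs in 28.3% and TGANTCA in 7.81% of the 32851 start regions of this length in the table. Searches on both strands for TGTGGT (Runx type, in 16.8% of start regions), CAGACA (SMAD type, 21.04%) and a pair of GAAA with any 2 bases between (interferon response type, 3.44%) found none in either sequence. None of the motif matches in them overlap. The table holds start regions for 7 of the 9 genes; Klrd1 and Klrg1 are the others. Of the natural killer type members, Klrb1c, Klrc1, Klrk1 and 1 of the 2 entries of Klre1 hold a TGTGGT match, and both entries of Klrb1b hold none.

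The 7 natural killer type members all had slightly lower means on TRIM33 arrays, by -0.06 to -0.50, with a median of -0.20, beside a median of -0.01 over all genes. In the Y set alone 5 of the 7 lay below 0 and 2 above (median -0.07), and in the Xist set 7 of 7 lay below 0 (median -0.19). Most read near the bottom of the scale, where differences between arrays are compressed. Of the 9 members, 5, all of natural killer type, had means below the median gene (4.24). Klra17, Klra2, Klrb1c and Klrk1 lay above it. Klra17 did so only through its TRIM33 arrays, since each of its WT readings lay below 4.24. In bulk samples, fewer cells that carry a transcript and less of it per cell cannot be told apart.

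Klre1 differed most among them. It encodes a receptor that pairs with Klri1 or Klri2 proteins on natural killer cells. Klre1 read 2.77, 2.65 and 3.07 on TRIM33 arrays of the Y set, against 3.48, 3.66 and 3.07 on WT arrays. Its Xist set values were 2.14, 3.05 and 2.74 on TRIM33 arrays, against 3.48, 2.92 and 2.81 on WT arrays. All 6 TRIM33 arrays were below the WT mean, but the genotypes overlapped in both sets, and the mean difference was -0.50 (SE 0.183). Its partner Klri2 had a difference of -0.30 and Klri1 of 0.01.

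Klrd1 encodes CD94, the shared chain of the receptors that read the MHC relative Qa-1. Klrd1 read 5.34, 4.61 and 4.79 on TRIM33 arrays of the Y set, against 3.98, 4.96 and 4.79 on WT arrays. Its Xist set values were 3.31, 3.13 and 3.20 on TRIM33 arrays, against 3.73, 4.40 and 3.73 on WT arrays. The genotypes overlapped in the Y set (difference 0.34, SE 0.281), whereas in the Xist set each TRIM33 array was below every WT array (difference -0.74, SE 0.188). Klrc1, the inhibitory NKG2A chain that pairs with CD94, read 2.57, 2.91 and 3.22 (lowest, median and highest) on TRIM33 arrays and 2.82, 3.0 and 3.69 on WT arrays, which overlap. Its mean difference was -0.20 (SE 0.158), and -0.08 without WT replicate 6.

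Klrk1 and Klrb1c were the natural killer type members whose means lay above that of the median gene. Klrk1, the activating receptor NKG2D, read 5.17, 5.67 and 6.86 (lowest, median and highest) on TRIM33 arrays and 5.45, 5.83 and 6.21 on WT arrays, and its difference was -0.06 (SE 0.246). The sign of this small difference turned when TRIM33 replicate 2 or 6 or WT replicate 2 or 5 was left out, at 0.01 to 0.06. The highest of these readings was TRIM33 replicate 1 and the lowest was TRIM33 replicate 2, both of the Y set. Klrb1c, the activating receptor known as NK1.1, read 5.02, 5.35 and 5.89 on TRIM33 arrays and 5.39, 5.58 and 6.21 on WT arrays, with a difference of -0.24 (SE 0.163), or -0.13 without WT replicate 2. Klrb1b, an inhibitory relative of NK1.1 that binds Clec2d, read 2.88 to 3.48 on TRIM33 arrays and 3.04 to 3.64 on WT arrays. Klrg1, an inhibitory receptor for cadherins and a marker of mature T and natural killer cells, read 2.62 to 2.94 and 2.67 to 3.08 in the same order. For these 4 genes the genotypes overlapped, and the differences of Klrb1b and Klrg1 were -0.09 (SE 0.129) and -0.08 (SE 0.0872).

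**Figure D2:**
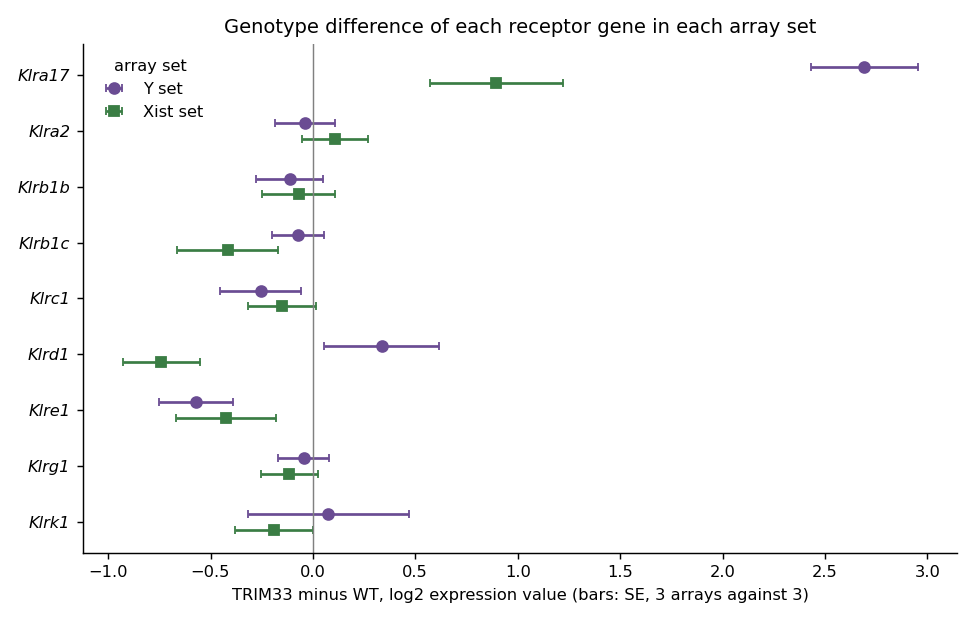
Difference between TRIM33 and WT arrays in log2 expression value (x axis) for each of the 9 genes (rows), in the Y set (circles) and the Xist set (squares), with bars of 1 SE from limma (3 arrays against 3). Klra17 lies at 2.69 and 0.90, and every other gene between -0.74 and 0.34.

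Counts over the 9 genes are set beside the background of all genes and nothing is read from them, since the genes were picked on this contrast. With genotype alone 0 of 9 passed limma at an adjusted p of 0.05, beside 0.0215% of all genes. At an unadjusted p under 0.05 there were 2 of 9 (Klra17 and Klre1), beside 715 of all 23279 genes. When the fit held the array set as a block, 0 of 9 passed, beside 0.0387%. In the Y set alone 1 of 9 passed (Klra17), beside 0.0344%, and in the Xist set 0 of 9, beside 0.0129%. In the Xist set Klra17 and Klrd1 had an unadjusted p under 0.05, beside 1162 of all 23279 genes. Left without TRIM33 replicate 4, Klra17 differed by 2.12 (SE 0.301) and 1 of 9 passed, beside 0.0387%. With any other single array left out 0 of 9 passed, beside 0.0215% to 0.0258%. Over all 12 arrays 0 of 9 genes were without overlap between genotypes, beside 0.198% of all genes. Within the Y set 1 was higher on TRIM33 arrays without overlap (Klra17, beside 4.61%) and 0 were lower (5.43%). Within the Xist set 0 were higher (4.41%) and 1 was lower (Klrd1, beside 5.86%).

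The genotype difference of Klra17 was larger in the Y set than in the Xist set by 1.80 (SE 0.472). Klrd1 had differences of opposite sign, 0.34 (Y set) and -0.74 (Xist set), which lie 1.08 apart (SE 0.367). Neither passed the interaction test of limma (adjusted p = 0.996 for both, in the fit over all genes). Of the 9 genes 0 passed, beside 0.00430% of all genes, and 2 had an unadjusted p under 0.05, beside 981 of all 23279 genes. Between the 4 mixes and the 2 other arrays of the Y set 0 of 9 passed limma, beside 0% of all genes. The genes were not picked on this contrast, and 0 of 9 had an unadjusted p under 0.05, beside 2584 of all 23279 genes. Klrk1 had the largest such difference, at -0.43 (SE 0.409, adjusted p = 0.756 by limma), and Klra17 differed by 0.11 (SE 0.285).

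The position of Klra17 on chromosome 6 is of interest because its neighbours can be read on the same arrays. RefSeq places 51 measured genes from Klrb1a to Klra2, 8 of them described here. Klra17 lies between Klrh1 (difference -0.17) and Klra5 (-0.09). Apart from Klra17, the 50 genes of the complex differed between genotypes by -0.94 to 0.39, with a median of -0.05. The lowest was Gm15987, a predicted gene, at 8.73, 7.98 and 7.55 on TRIM33 arrays against 9.46, 9.52 and 9.50 on WT arrays in the Y set. In the Xist set it read 8.82, 8.67 and 7.78 on TRIM33 arrays and 8.85, 8.96 and 8.92 on WT arrays. Each of the 6 TRIM33 arrays read below the 6 WT arrays, which held for no other gene of the complex in either direction. Of all genes, 0.198% were without overlap in either direction. Gm15987 did not pass limma (difference -0.94, SE 0.235).

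TRIM33 replicate 4 sat nearer to the WT arrays of its set than replicates 5 and 6 did for some genes of the complex. It read 8.82 for Gm15987 against 8.85 to 8.96 on the WT arrays of its set. Clec2i, a lectin-like ligand gene of the complex, read 8.19, 7.14 and 7.27 on the TRIM33 arrays of the Xist set (replicates 4, 5 and 6), against 8.41, 8.49 and 8.54 on the WT arrays. Klrb1f, a relative of NK1.1, read 9.28, 8.76 and 7.94 on TRIM33 arrays there, against 9.12, 9.0 and 9.19 on WT arrays. Other genes of the complex went the other way: Klre1, Klrb1b and Klrb1c read lower on replicate 4 than on replicates 5 and 6. Without replicate 4 their differences over all arrays moved from -0.50, -0.09 and -0.24 to -0.38, -0.03 and -0.17. Gm15987, Clec2i and Klrb1f were picked after their values were seen, and the reason for the position of this array was not tested.

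**Figure D3:**
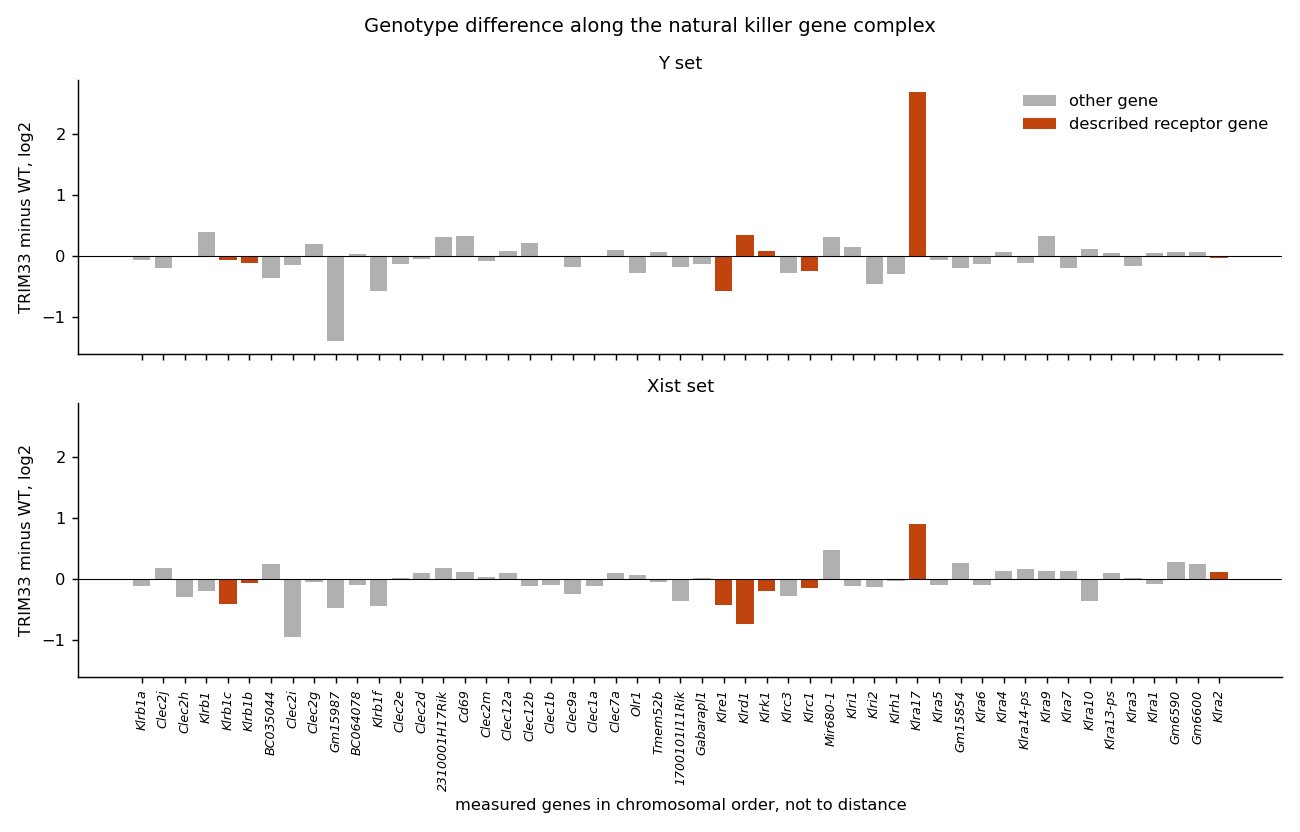
Difference between TRIM33 and WT arrays in log2 expression value (y axis) for the 51 measured genes of the natural killer gene complex in chromosomal order (x axis, not to distance), in the Y set (top) and the Xist set (bottom). The described genes are orange, other genes grey. Klra17 stands at 2.69 and 0.90, between Klrh1 at -0.30 and -0.04 and Klra5 at -0.07 and -0.11.

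The genes most like Klra17 were sought among the 11638 other genes with a mean above the median, by Pearson's r over the 12 arrays after the mean of each array set was subtracted. They were Mbd4, a DNA repair glycosylase (r = 0.935), Emp1, an epithelial membrane protein (0.934), Hebp1, a heme-binding protein (0.928), Oasl1, an interferon-induced relative of the oligoadenylate synthetases (0.918), and Tlr8, a sensor of RNA in endosomes (0.906). Within the Y set r was 0.950 to 0.993 for these 5, and within the Xist set 0.464 (Tlr8) to 0.974. The genes were chosen for the highest r on these same arrays. High r therefore follows in part from the choice, also for the members below. The arrays of a set share their genotype groups, so a gene that differs between genotypes scores high here. Mbd4, Emp1 and Hebp1 lie on chromosome 6, like Klra17, as do 4.96% of the genes compared with a known chromosome. Oasl1 lies on chromosome 5 and Tlr8 on chromosome X.

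On the arrays of the Xist set Emp1 read 3.47, 7.22 and 7.93 on TRIM33 replicates 4, 5 and 6, against 3.79, 4.31 and 4.04 on WT arrays. Hebp1 read 5.12, 7.70 and 6.94 on the same TRIM33 arrays, against 4.86, 5.22 and 4.82 on WT arrays. As for Klra17, replicate 4 lay among or below the WT arrays and replicates 5 and 6 above them. In the Y set Emp1 read 8.47 to 9.18 on TRIM33 arrays and 4.46 to 4.95 on WT arrays. Of these 5 genes 0 passed limma with genotype alone (beside 0.0215% of all genes) or in the blocked fit (0.0387%). In the Y set alone Emp1 passed (difference 4.25), beside 0.0344% of all genes. Likeness to Klra17 was scored on the same arrays, and Klra17 was picked on this contrast, so nothing is read from these tests.

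**Figure D4:**
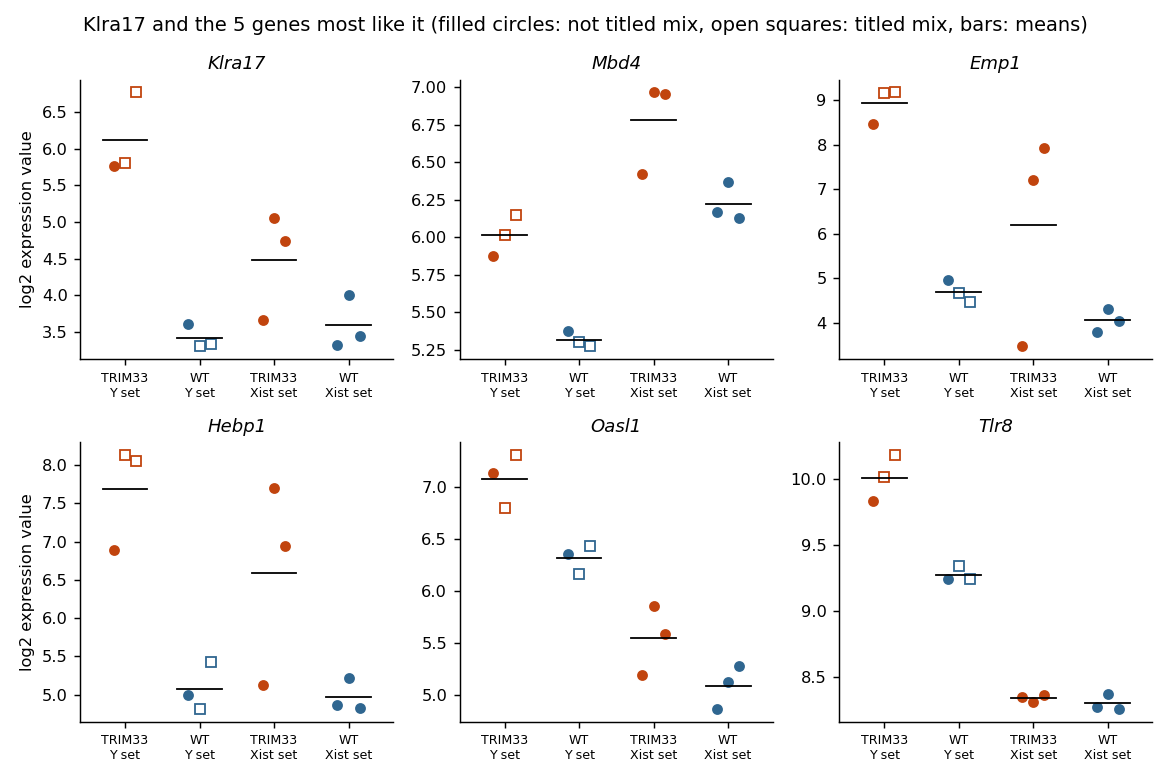
Log2 expression value (y axis, not starting at 0) of Klra17 and the 5 genes most like it on the 12 arrays, by genotype and array set, with bars at group means. In the Xist set TRIM33 replicate 4 (the leftmost TRIM33 point) lies apart from replicates 5 and 6 for Klra17, Emp1 and Hebp1, at 3.66, 3.47 and 5.12.

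For Klra2 the nearest genes were Mtpn (r = 0.916), Ankrd13b (0.891), Vps26a (0.871), Hmgcs1, an enzyme of cholesterol synthesis (0.860), and Cd36, a lipid scavenger receptor (0.850). Of these Mtpn lies on chromosome 6. Cd36 read 6.72, 5.06 and 6.60 on TRIM33 arrays and 5.41, 6.48 and 6.97 on WT arrays of the Y set, so TRIM33 replicate 2 was lowest for both Cd36 and Klra2 in that set. The best match was Denr for Klrk1 (r = 0.935), Actr8 for Klrb1c (0.930), Rspry1 for Klrb1b (0.916), Rragc for Klrg1 (0.913), Nsun2 for Klre1 (0.912), Garre1 for Klrd1 (0.905) and Gmppb for Klrc1 (0.882). Within the Y set the match of Klrb1c did not hold (r = -0.147).

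Of the 9 genes, Klra2 and Klrd1 had the largest differences between the array sets. Klra2 was higher in the Y set by 1.25 (SE 0.110), or 2.38-fold on the linear scale, with no overlap between 6 arrays and 6. It was the only one of the 9 genes higher without overlap, beside 6.59% of all genes, and 0 were lower, beside 7.45%. Klrd1 was higher in the Y set by 1.16 (SE 0.227), at 3.98, 4.79 and 5.34 (lowest, median and highest) in the Y set and 3.13, 3.52 and 4.40 in the Xist set. Klra17 differed by 0.73 (SE 0.328), Klrc1 by 0.31 (SE 0.132), Klre1 by 0.26 (SE 0.164), and Klrb1b, Klrk1, Klrg1 and Klrb1c by -0.14 to 0.13.

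Cell type markers moved with the sets as well. The 12 measured Ly6C-low monocyte markers had a mean log2 value of 7.31 to 8.17 in the Y set and 6.16 to 6.49 in the Xist set, and the 18 measured cycling genes of 4.79 to 5.82 and 9.36 to 9.45. The mean of the 17 measured natural killer markers was 4.42 to 4.62 in the Y set and 3.99 to 4.12 in the Xist set. Of these, 6 were higher and 1 lower in the Y set without overlap, beside 6.59% and 7.45% of all genes. Gzma, a granzyme of cytotoxic cells, was among the higher, at 3.87 to 5.11 in the Y set against 2.59 to 3.44 in the Xist set. The receptor Ncr1, which defines the lineage, differed by 0.06. The part of other cells or of monocyte stage in the readings of Klra2 and Klrd1 was not tested.

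**Figure D5:**
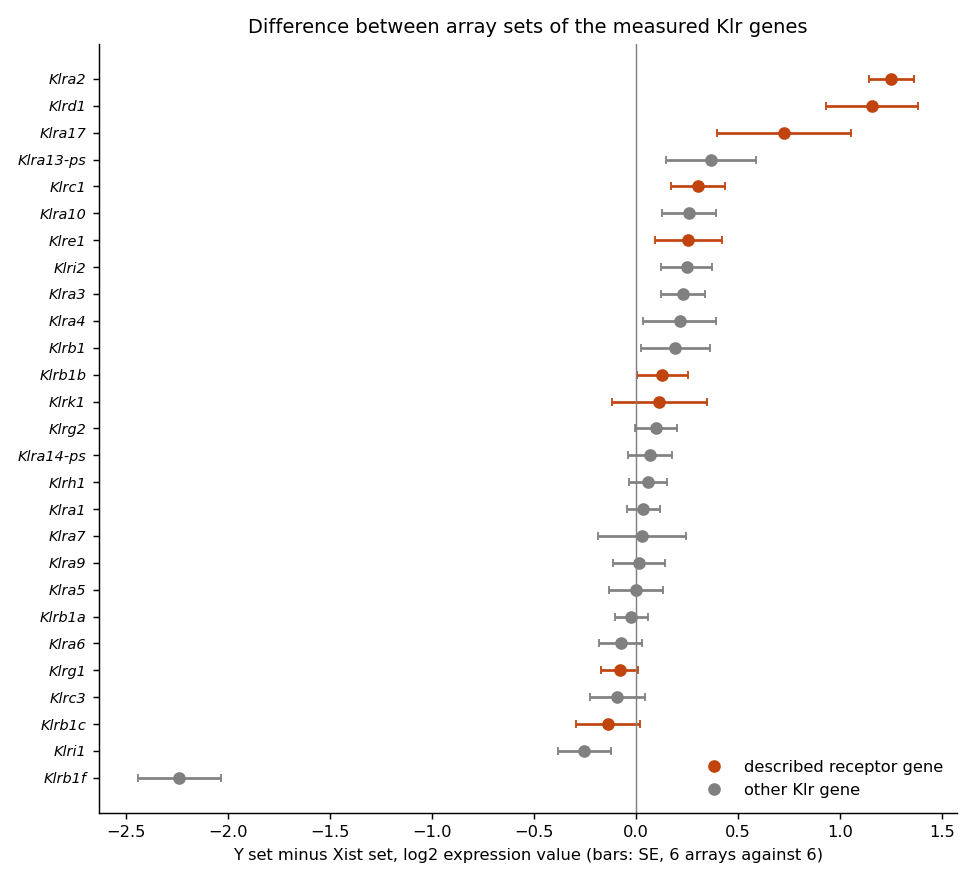
Difference between the Y set and the Xist set in log2 expression value (x axis, bars of 1 SE from limma, 6 arrays against 6) for the 27 measured Klr genes (rows, ordered by the difference). Klra2 at 1.25 and Klrd1 at 1.16 lie at the upper end and Klrb1f at -2.24 at the lower end.

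Of 30 further Klr genes on a list, 17 were measured; Klrg2, also measured, was not on the list and read 4.64 to 5.27, with a difference of -0.15 (SE 0.106). Between genotypes 6 of the 17 lay above 0 and 11 below (median -0.07), beside 10481 of all 23279 genes above 0. Of the 17, 0 passed limma with genotype alone (beside 0.0215% of all genes) or in the blocked fit (0.0387%). The largest differences were those of Klrb1f (-0.51), Klri2 (-0.30), Klrc3 (-0.28) and Klra9 (0.23). Most of the 17 were dim: all but Klrb1f (5.82 to 9.28), Klra13-ps (5.73 to 7.42) and Klra4 (3.02 to 4.10) stayed below 3.72 on every array. Klrb1f, of the NK1.1 branch, ran against Klra2: it read 6.43, 6.81 and 5.82 on TRIM33 arrays and 6.61, 7.08 and 7.13 on WT arrays of the Y set, each below every array of the Xist set. It was the only one of the 17 without overlap between sets, beside 7.45% of all genes lower and 6.59% higher in the Y set without overlap. Ly49 genes are close copies of each other, and readings of Klra17, Klra2 and the pseudogene Klra13-ps may share probes, which the deposited values cannot show.

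The adaptors that carry signals of the family were present in these monocytes. Tyrobp, which encodes DAP12, read 12.21 to 12.35 on TRIM33 arrays and 12.02 to 12.35 on WT arrays, and Hcst, which encodes DAP10, 9.41 to 9.89 and 9.23 to 9.72. Of the 16 measured adaptor and signalling genes 11 lay above 0 and 5 below, with a median of 0.03, and 0 passed limma. Over all genes, 10481 of 23279 lay above 0. In the Y set alone 9 of the 16 lay above 0 and 7 below, and in the Xist set 8 and 8. Sh2d1b1, an adaptor of SLAM receptors (0.53, SE 0.287), and Hcst (0.17, SE 0.104) had the smallest p. The 3 phosphatases recruited by inhibitory receptors lay below 0: Ptpn11 (-0.12, SE 0.104), Ptpn6 (-0.06, SE 0.0792) and Inpp5d (-0.13, SE 0.173). Of these 3, 0 passed.

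Among ligands of the family, 16 of 20 measured genes lay above 0 and 4 below, with a median of 0.06, and 0 passed limma. Over all genes, 10481 of 23279 lay above 0. In the Y set alone 15 of the ligand genes lay above 0 and 5 below, and in the Xist set 10 and 10. H2-K1, the MHC class I gene whose product Ly49Q binds, read 9.47 to 10.24 on TRIM33 arrays and 9.26 to 10.08 on WT arrays, a difference of 0.15 (SE 0.161). Within the Y set H2-K1, H2-D1 and H2-T22 were higher on TRIM33 arrays without overlap, beside 4.61% of all genes. The other ligand genes overlapped there, and in the Xist set these 3 overlapped too. Raet1e, a ligand of NKG2D (0.44, SE 0.244), and H2-Q4, an MHC class Ib gene (0.26, SE 0.168), had the smallest p of the list. A list of 20 other genes, most of them lectin-like, reached beyond the span from Klrb1a to Klra2. Of these, 9 lay above 0 and 11 below (median -0.04), and 0 passed. Clec2l (-0.27, SE 0.121), which lies outside that span, and Clec2h (-0.16, SE 0.105), which lies in it, had the smallest p.

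Other inhibitory receptors of myeloid cells were read on the same arrays, with 12 of 15 genes above 0 and a median of 0.11, and 0 passed limma. Over all genes, 10481 of 23279 lay above 0. In the Y set alone 12 of the 15 lay above 0 and 3 below, and in the Xist set 11 and 4. Lilrb4a (0.21, SE 0.151) and Cd300lf (0.32, SE 0.298) had the smallest p. Of the 15, 9 were higher and 1 lower in the Y set than in the Xist set without overlap, beside 6.59% and 7.45% of all genes, with a median difference of 0.78 between sets.

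Markers of cells known to carry Ly49Q were set beside Klra17. The mean log2 value of the 10 measured plasmacytoid dendritic cell markers was 4.59 to 4.90 on TRIM33 arrays and 4.71 to 4.87 on WT arrays of the Y set, and Siglech, which defines these cells, differed by -0.01 between genotypes (SE 0.169). The mean of the 15 measured neutrophil markers was 5.34 to 6.50 on TRIM33 arrays and 5.09 to 5.15 on WT arrays of the Y set, and 6.17 to 6.65 and 5.86 to 6.24 in the Xist set. Of these 15, 11 lay above 0 and 4 below (median 0.43), beside 10481 of all 23279 genes above 0. Only 1 of the 15, the protease inhibitor Stfa1, passed limma (2.74, SE 0.251, adjusted p = 0.000653), beside 0.0215% of all genes. Ly6g, which defines neutrophils, differed by -0.01 (SE 0.195). In the Y set the neutrophil mean was highest on TRIM33 replicate 2 (6.50) and Klra17 on TRIM33 replicate 3 (6.77). In the Xist set both were highest on TRIM33 replicate 5 (6.65 for the neutrophil mean and 5.06 for Klra17). With TRIM33 replicate 2 left out, Klra17 differed by 1.69 (SE 0.425). The part of neutrophils in the readings of Klra17 was not tested.

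Markers of natural killer cells, T cells and B cells were set beside the natural killer type members. The mean of the 17 natural killer markers was 3.99 to 4.56 on TRIM33 arrays and 4.02 to 4.62 on WT arrays. Between genotypes 8 of these genes lay above 0 and 9 below, beside 10481 of all 23279 genes above 0, and 0 passed limma. Ncr1 (-0.18, SE 0.0945) and Tbx21, a transcription factor of cytotoxic lymphocytes (0.16, SE 0.112), had the smallest p. The 11 T cell markers averaged 3.83 to 4.42 on TRIM33 arrays and 3.83 to 4.33 on WT arrays, and the 8 measured B cell markers 3.75 to 4.70 and 3.88 to 4.58, with 0 past limma in either list. The part of such cells in the readings of the natural killer type members was not tested.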

How the data were processed

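The table deposited by the authors holds log2 values for 24479 gene-level features on 12 arrays. Per the submitters' processing notes the authors used RMA and Partek; for versions, chip definition and genome build: not given in the sources used here. Per the labels' protocols 900 pg of total RNA was amplified and biotinylated. RMA evens the distribution of values between arrays and compresses dim genes. The labels' treatment text describes T cells; source names and series design, which give monocytes, were followed.

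The 23281 features with a gene symbol gave 23279 genes. Genes were fitted with limma 3.58.1 in R 4.3.3 (genotype only, all 12 arrays) and called at a Benjamini-Hochberg adjusted p of 0.05 over all genes. Array sets came from clustering the arrays by Pearson's r (average linkage), without the 9 genes and without regard to genotype; no label gives them. Arrays carry no counting depth; their number limits the precision. RefSeq tables of GRCm38.p6 gave names, gene order and start regions, aligned globally. Figures used matplotlib 3.10.9 in Python 3.11.15.

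The members, lists and tests were chosen with earlier results of these data known. Named genes were the 9 members, up to 4 further Klr genes of largest difference, the genes most like a member, cell-defining markers, and of each list those past the threshold or the 2 of smallest p. Gm15987, Clec2i, Klrb1f (in the text on replicate 4), Klra4, Klra13-ps, Klri1, Klrg2, Tyrobp, Inpp5d, Gzma, H2-K1, H2-D1 and H2-T22 were named after their values were seen. Alternatives were other normalizations, filters, variance models, covariates and sets of arrays.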

Additional observations from a re-analysis of the deposited data

Results flagged for a closer look

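Among 18 groups of 6 arrays (9 genes in 2 genotypes), 2 held an array whose gap to its nearest neighbour exceeded a share of 0.625 of the group's range; chance sets apart about 1 group in 20. Klrb1c read 6.21 on WT replicate 2, against 5.39 to 5.65 on the other WT arrays. Klrc1 read 3.69 on WT replicate 6, against 2.82 to 3.11 on the other WT arrays.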

How the results depend on the processing

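Between genotypes 5 genes passed limma. The count was 9 with the array set as a block, 8 in the Y set alone, 3 in the Xist set alone and 0 in the arrays not titled as mixes (565 at an unadjusted p under 0.05). It was 10 with the mix number as a replicate block on the 4 mixes and 5 to 9 when 1 array was left out, 9 without TRIM33 replicate 4. When the array set was the block, the count was 9 without TRIM33 replicate 2 and 15 without TRIM33 replicate 4, both chosen after seeing the data. Mix numbers give only 2 pairs, which the labels do not tie to shared animals.

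For the interaction 1 gene passed, 0 when dimmer genes (mean at or below the median) were left out, and 0 to 2 when 1 array was left out (2 without TRIM33 replicate 3, and 0 without TRIM33 replicates 4 and 6 and WT replicates 2, 3 and 6, each in turn). Between mixes and other arrays 0 passed; 14 did after quantile normalization again, 18 without the dimmer genes, 61 with an intensity trend, 6 with array weights, and 0 to 7 when 1 array was left out (2 without TRIM33 replicate 1, 7 without TRIM33 replicate 2 and 1 without WT replicate 6). The causes were not tested.

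Klra17, which was picked on this contrast, kept its direction under all 29 alternatives, at 0.90 to 2.96. The highest value came from the mixes, whether or not mix numbers were blocked. Not all alternatives could have turned the sign. Blocking by array set, the preparation covariate, the expression filters, the intensity trend and the robust fit leave the mean difference at 1.79 by design. Klra17 passed in the Y set alone, on the mixes when blocked by mix number, and without TRIM33 replicate 4, whether array sets were blocked or not. No other member passed under any of these. Klra2, Klrb1c, Klrd1 and Klrk1 changed sign under 10, 2, 1 and 7 alternatives. Dim readings limit the differences of most natural killer type members, and the WT readings of Klra17 were dim too.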
